A study of Mus musculus with 5 samples.

Results

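Transcription factors and RNA-binding proteins that mark the epiblast, the cells that give rise to the embryo proper, were followed in mouse ES cells with and without C3G. The genes were Otx2, Zic2, Zic5, Foxd3, Sox4, Lin28b and Pou3f1, 7 of the 55147 gene symbols in the deposited table. They were chosen by name as epiblast and primed-state factors, and all 7 passed the filter of at least 1 TPM in at least 2 samples, as did 12518 genes in all. TPM are a measure of expression per transcript length, scaled to an equal total in every sample.

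The cells were E14Tg2a, an established mouse ES cell line, grown on gelatin in GMEM with serum and LIF and without further treatment. The 3 WT samples were the parent cells. The 2 C3G KO samples carried a puromycin cassette in place of exons near the 5′ end of Rapgef1, put in by CRISPR. Rapgef1 encodes C3G, a guanine nucleotide exchange factor. The study worked with several knockout clones, and the labels do not say which clone, or how many, gave the 2 C3G KO samples, so a difference between genotypes and a difference between clones cannot be told apart. The study calls the samples of each group independent and does not say whether this means separate cultures or clones, so p-values measure only the spread between these samples, which may be in part technical.

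ES cells in serum and LIF lie between the naive state, held by factors such as Klf4 and Esrrb, and the primed state of the epiblast after implantation. Otx2 is a homeodomain factor that rises early as cells leave the naive state and acts at enhancers of primed-state genes. Pou3f1 (also called Oct6) is a POU factor of the primed state. Zic2 and Zic5 are zinc finger factors encoded side by side. Foxd3 is a forkhead factor needed for the epiblast, Sox4 is an HMG-box factor, and Lin28b binds the precursors of let-7 microRNAs and blocks their maturation.

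The members lie on 4 chromosomes of GRCm38. Otx2 (ENSMUSG00000021848, chr14:48657677-48673819, minus strand), Zic5 (ENSMUSG00000041703, chr14:122456795-122465677, minus strand) and Zic2 (ENSMUSG00000061524, chr14:122475435-122479852, plus strand) share chromosome 14. Pou3f1 (ENSMUSG00000090125, chr4:124656807-124660655, plus strand) and Foxd3 (ENSMUSG00000067261, chr4:99656299-99658622, plus strand) are on chromosome 4. Lin28b (ENSMUSG00000063804, chr10:45376620-45486395, minus strand) and Sox4 (ENSMUSG00000076431, chr13:28948919-28953713, minus strand) are on chromosomes 10 and 13. Pou3f1, Foxd3 and Sox4 were each annotated as 1 transcript with 1 exon. The lincRNA Otx2os1, which overlaps Otx2 on the opposite strand, had between 0.04 and 0.13 TPM, and the antisense gene Gm2164 at Pou3f1 was listed at 0 in every sample.

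The sequences before the start sites are shown for the pair whose levels moved most alike, Otx2 and Zic5, and for Lin28b, which moved the other way. They are from the RefSeq table of GRCm38.p6, which held a window for 5 of the 7 members, and run 5′ to 3′ on the minus strand. CG dinucleotides are in capitals, and bases that lie in exons were left out. The piece of Otx2 is the 112 bases that end at the start of its transcript Otx2-204 (chr14:48662873-48662984), that of Zic5 has 231 bases (chr14:122465678-122465908) and that of Lin28b has 250 bases (chr10:45470202-45470451).
Otx2: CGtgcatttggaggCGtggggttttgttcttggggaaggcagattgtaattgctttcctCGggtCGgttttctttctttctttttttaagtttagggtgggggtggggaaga
Zic5: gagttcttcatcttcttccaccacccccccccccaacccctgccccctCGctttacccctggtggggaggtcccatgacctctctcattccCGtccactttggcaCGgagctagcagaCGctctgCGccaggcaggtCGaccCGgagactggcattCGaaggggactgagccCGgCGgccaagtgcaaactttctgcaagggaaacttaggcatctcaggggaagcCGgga
Lin28b: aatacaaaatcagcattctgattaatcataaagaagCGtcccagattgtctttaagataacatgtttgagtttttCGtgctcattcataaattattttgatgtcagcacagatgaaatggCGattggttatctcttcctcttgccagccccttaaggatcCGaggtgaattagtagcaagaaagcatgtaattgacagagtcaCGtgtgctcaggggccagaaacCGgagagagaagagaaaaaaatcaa
The full RefSeq windows have 250 bases, exon bases included, and the one the Otx2 piece comes from ends at a RefSeq start site at base 48662734, inside Otx2-204. It held 9 CG, and the windows at 3 other RefSeq start sites of Otx2 held 6, 8 and 14. The window of Zic5 held 11 and that of Lin28b 6, and the median over 32851 windows was 6.

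Small RNAs took a different share of the TPM in each sample, which moves the TPM of every other gene. Protein-coding genes held between 28.8% and 31.8% of the TPM in WT, 18.6% in C3G KO 1 and 26.0% in C3G KO 2. Small RNAs held between 56.1% and 61.9% in WT, 73.2% in C3G KO 1 and 62.3% in C3G KO 2. Values are therefore given as deposited and with a scaling by the median ratio of genes to their geometric mean over the samples (called scaled TPM), and adjusted p-values are those of scaled TPM unless stated. The median log2 fold change over all tested genes was -0.55 as deposited and 0.0052 after scaling. Rapgef1, the targeted gene, whose level here includes exons outside the replaced part, was listed at 11.56, 10.31 and 9.64 in WT against 3.92 and 5.55 in C3G KO, and a log2 fold change of -0.41 in scaled TPM (limma adjusted p = 0.00444), which a correction for length and GC content took to -0.12 (limma adjusted p = 0.231).

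Relative to the median gene, Otx2, Zic5 and Zic2 rose 2.10-fold, 2.15-fold and 2.0-fold in C3G KO, Lin28b fell slightly, and Foxd3, Sox4 and Pou3f1 did not pass the test. In limma with Benjamini-Hochberg adjustment over all genes, 3 of the 7 members were higher and 1 was lower. Of all tested genes, 14.1% were called higher and 16.6% lower. In TPM as deposited limma called 0 members higher, 0 also at an unadjusted p under 0.05, and 1 lower, against 1.45% of all genes higher and 56.8% lower. The deposited counts hang on single libraries, in a check chosen after seeing the data. Without C3G KO 1, limma called 2 members higher (Otx2 and Zic5) and 0 lower, against 0.890% and 21.7% of all genes. Without C3G KO 2 it called 0 higher and 4 lower (Foxd3, Lin28b, Pou3f1 and Sox4), against 0.757% and 82.8% of all genes, and without WT 2 it called 0 in either direction. With all samples, the rise of Otx2 and the Zic genes passed against the other genes of the same samples and not in TPM as deposited.

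In the study's quantitative PCR (qPCR) Otx2 was repressed in C3G null cells, the opposite of its rise after scaling here. The cause of this difference was not tested. As deposited, WT 1, WT 2 and WT 3 had 12.34, 10.47 and 10.10 TPM of Otx2, C3G KO 1 had 12.19 and C3G KO 2 had 16.35. After scaling it had 9.24, 8.58 and 9.15 in WT and 19.7 and 18.05 in C3G KO, with means of 8.99 ± 0.357 (SD, n = 3) and 18.9 ± 1.17 (SD, n = 2). Both C3G KO samples lay above all WT samples after scaling, whereas C3G KO 1 lay within the WT range as deposited. The scaled means differed 2.10-fold, the log2 fold change was 0.99 (SE 0.070, limma adjusted p = 0.000460), and 1.57% of the tested genes had a larger one. As deposited, the log2 fold change was 0.34 (SE 0.26, limma adjusted p = 0.217), and it was 0.54 without C3G KO 1 (limma adjusted p = 0.0485) and 0.14 without C3G KO 2 (limma adjusted p = 0.404).

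Zic5 and Zic2 are transcribed in opposite directions from neighbouring starts. Zic5 had 5.90, 5.32 and 5.68 scaled TPM in WT and 11.9 and 12.4 in C3G KO. The scaled means, 5.63 ± 0.294 (SD, n = 3) and 12.1 ± 0.311 (SD, n = 2), differed 2.15-fold, with a log2 fold change of 0.99 (SE 0.067, limma adjusted p = 0.000426). The groups did not overlap, and the gap between them was many times the spread within either group. Zic2 had 5.97, 5.69 and 4.47 scaled TPM in WT and 10.3 and 11.2 in C3G KO, with a wider spread in WT (5.38 ± 0.795, SD, n = 3) than Zic5. Its mean in C3G KO was 10.8 ± 0.669 (SD, n = 2), which was 2.0-fold higher, and the log2 fold change was 0.89 (SE 0.12, limma adjusted p = 0.00333). As deposited, neither passed the test, with log2 fold changes of 0.36 for Zic5 (limma adjusted p = 0.174) and 0.27 for Zic2 (limma adjusted p = 0.304). Without C3G KO 1 these became 0.64 (limma adjusted p = 0.0380) and 0.57 (limma adjusted p = 0.106), and without C3G KO 2 they became 0.093 and -0.029. Leaving out WT 3 took Zic2 to 0.10 as deposited.

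Foxd3 and Sox4 were higher in both C3G KO samples than in all WT samples after scaling, by less. Foxd3 had 4.17, 4.12 and 3.17 scaled TPM in WT and 4.2 and 5.87 in C3G KO, so that C3G KO 1 was barely above the highest WT sample. Its log2 fold change was 0.32 (SE 0.15, limma adjusted p = 0.160), 0.12 without C3G KO 2 and 0.53 without C3G KO 1, and it did not pass in either case. Sox4 had 4.91, 5.10 and 4.87 scaled TPM in WT and 5.56 and 6.07 in C3G KO, a log2 fold change of 0.19 (SE 0.065, limma adjusted p = 0.0706). As deposited the sign of both turned, to -0.24 for Foxd3 and -0.39 for Sox4. These deposited values were 0.17 and -0.11 without C3G KO 1, and -0.64 (limma adjusted p = 0.0337) and -0.66 (limma adjusted p = 0.00825) without C3G KO 2. After a correction of every sample for transcript length and GC content both passed the test, at 0.57 for Foxd3 (limma adjusted p = 0.0119) and 0.36 for Sox4 (limma adjusted p = 0.00828), and these calls therefore depend on the processing.

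Pou3f1 did not pass the test. It had 2.52, 2.56 and 2.24 scaled TPM in WT and 2.2 and 2.80 in C3G KO, with overlapping groups and a log2 fold change of 0.022 (SE 0.098, limma adjusted p = 0.885). As deposited it was -0.46 (limma adjusted p = 0.0509), and with the length and GC correction 0.39 (limma adjusted p = 0.0117). Its direction also turned without a change of scaling, to -0.022 without WT 3 and -0.10 without C3G KO 2. The deposited value was -0.16 without C3G KO 1 and -0.75 without C3G KO 2 (limma adjusted p = 0.00867).

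Lin28b was the member that fell. It had 3.48, 3.16 and 3.54 scaled TPM in WT and 2.68 and 2.78 in C3G KO, and the groups did not overlap. The scaled WT mean of 3.39 ± 0.202 (SD, n = 3) was 1.24-fold that of C3G KO, 2.73 ± 0.0696 (SD, n = 2), with a log2 fold change of -0.23 (SE 0.070, limma adjusted p = 0.0490). It was also the lone member whose groups did not overlap as deposited, with 4.64, 3.86 and 3.91 TPM in WT and 1.66 and 2.52 TPM in C3G KO, and the log2 fold change was then -0.74 (limma adjusted p = 0.00323). The call was close to the threshold, passed as deposited, after scaling to protein-coding TPM and with a pseudocount of 0.1, and was lost in the other 12 of 15 alternatives, although the direction was the same in all of them. It was lost without any 1 of the 5 samples, with log2 fold changes from -0.28 to -0.21. As deposited it was lost without C3G KO 1 or WT 2, at -0.54 and -0.78.

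After scaling, both C3G KO samples lay above all WT samples in 5 of the 7 members and below them in 1. Over all tested genes the groups were separated in this way upwards for 29.5% and downwards for 29.3%. As deposited, 0 members lay above and 1 below, against 1.49% and 75.7% of all tested genes.

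**Figure D1:**
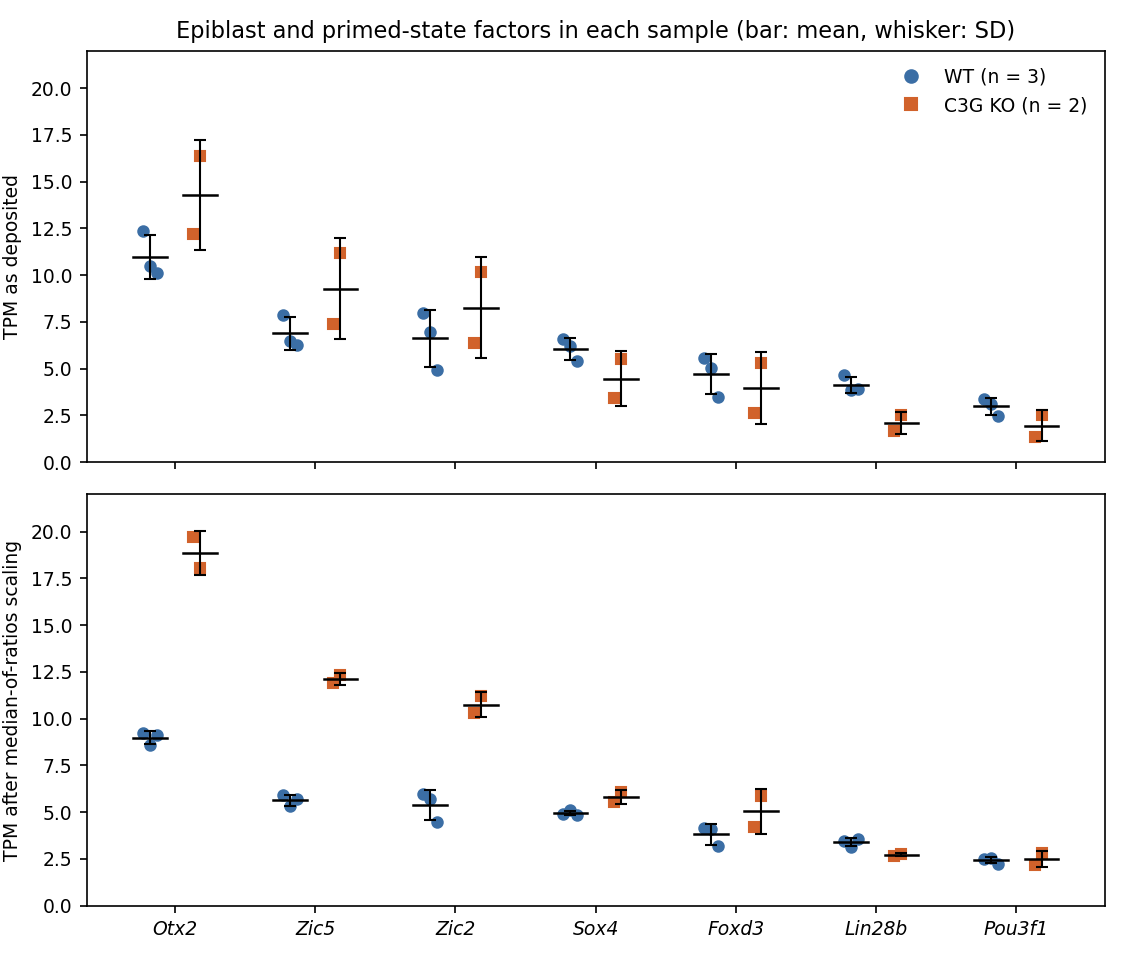
Level of each of the 7 members in every sample, as TPM in the upper panel and scaled TPM in the lower, with 1 point per sample, a bar at the mean of each group and whiskers of 1 SD. After scaling both C3G KO samples lie above all WT samples for Otx2, Zic5, Zic2, Foxd3 and Sox4 and below them for Lin28b. Of all tested genes 29.5% separate upwards and 29.3% downwards. Otx2 has 8.58 to 9.24 in WT and 18.05 to 19.7 in C3G KO.

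**Figure D2:**
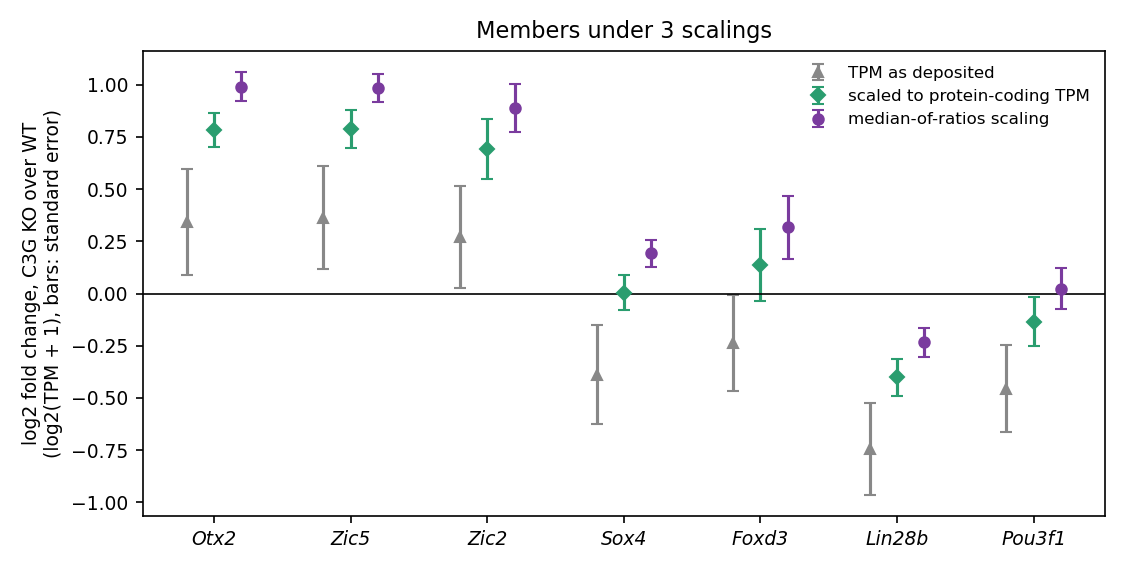
Log2 fold change of C3G KO over WT for each member under 3 scalings, with error bars of 1 standard error. Otx2, Zic5 and Zic2 are above 0 under each, Lin28b is below 0 under each, and Pou3f1, Foxd3 and Sox4 change sign between the deposited and the scaled values.

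In WT the order of the mean TPM was Otx2 with 10.97, Zic5 with 6.88, Zic2 with 6.62, Sox4 with 6.05, Foxd3 with 4.70, Lin28b with 4.14 and Pou3f1 with 2.98, and it was the same in C3G KO. TPM is a scale per transcript length, so levels of different genes can be set side by side. In WT the ranges of neighbours in this order overlapped from Zic5 down to Lin28b, whereas Otx2 lay above all others and Pou3f1 below all others in every WT sample. The share of a member in the sum of the 7 does not depend on the scaling of the sample. The share of Otx2 was 25.5%, 24.9% and 27.6% in WT and 34.8% and 30.5% in C3G KO. That of Lin28b was 9.60%, 9.16% and 10.7% in WT and 4.75% and 4.70% in C3G KO, and that of Pou3f1 was 6.75% to 7.41% in WT and 3.89% and 4.74% in C3G KO. The shares of Otx2, Zic5 and Zic2 were higher in both C3G KO samples than in all WT samples, and those of Sox4, Lin28b and Pou3f1 were lower. Shares of a sum are tied, so a rise of some members lowers the shares of the others without a fall of their own. In scaled TPM Sox4 lay above all WT samples in both C3G KO samples, and the log2 fold change of Pou3f1 was 0.022.

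Otx2 has 11 annotated transcripts that differ in their start sites. Otx2-204, which starts at base 48662872 and follows the sequence printed above, was the most abundant, with 4.85 ± 0.125 TPM in WT (SD, n = 3) against 6.56 ± 1.05 in C3G KO (SD, n = 2). Otx2-201, which starts at base 48665106, went from 4.02 ± 0.658 (SD, n = 3) to 5.00 ± 1.37 TPM (SD, n = 2). Otx2-202, which starts at base 48667513, went from 1.36 ± 0.0551 (SD, n = 3) to 1.62 ± 0.148 TPM (SD, n = 2). Otx2-204 and Otx2-201 both encode 289 residues and Otx2-202 encodes 297. After scaling their means were 2.19-fold, 1.99-fold and 1.95-fold higher in C3G KO, and the test was not run on transcripts. Their shares of the Otx2 TPM overlapped between the groups, with 40.4% to 47.1% in WT and 44.6% and 47.7% in C3G KO for Otx2-204, so C3G KO 1 was above the WT range and C3G KO 2 within it. Assignment of reads to overlapping transcripts is an estimate, and its error is unknown here.

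Both transcripts of each Zic gene had higher means in C3G KO. Zic5-201 and Zic5-202 were 2.32-fold and 1.95-fold higher in C3G KO after scaling. Zic2-201 was 1.92-fold higher, and Zic2-202, which retains an intron, 2.42-fold. Of the Lin28b transcripts, the coding Lin28b-201 had 0.798 of its scaled WT mean in C3G KO, and the non-coding Lin28b-202 and Lin28b-203 had 0.972 and 0.713.

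**Figure D3:**
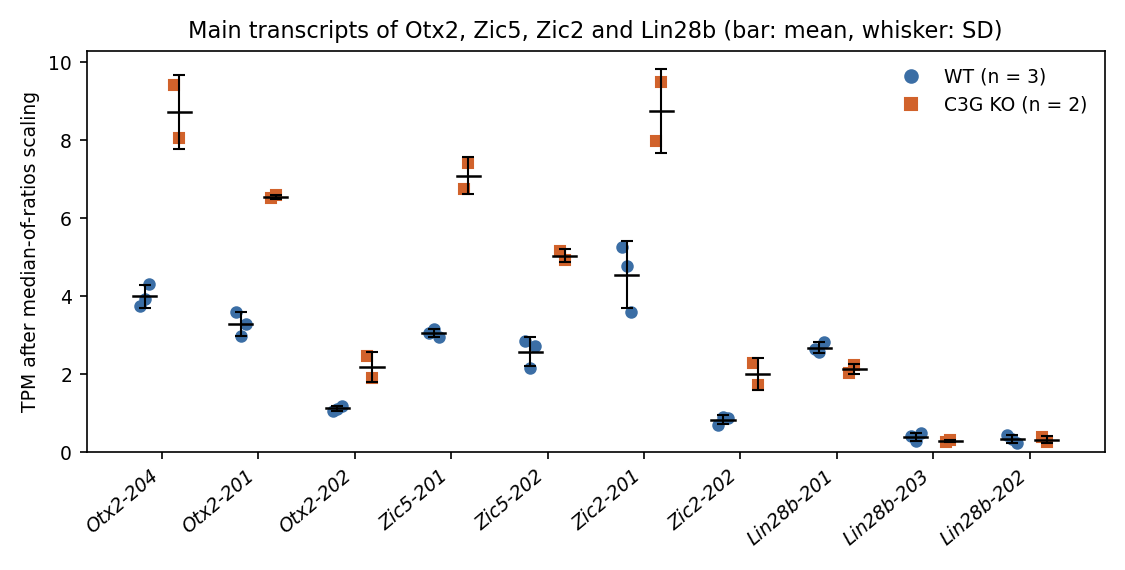
Scaled TPM of the main transcripts of Otx2, Zic5, Zic2 and Lin28b in every sample, with a bar at the mean of each group and whiskers of 1 SD. The 3 Otx2 transcripts are higher in both C3G KO samples than in all WT samples.

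Otx2 rose inside a stretch of chromosome 14 in which nearly all other genes fell. Of the 48 tested protein-coding genes that start within 5 Mb of Otx2, 44 (91.7%) were lower in C3G KO and 1 was higher, with a median log2 fold change of -0.70. Without 1 sample at a time 39 to 43 of the neighbours were lower. Within 2 Mb 19 of 19 were lower, and within 10 Mb 107 of 116. Of the 398 tested protein-coding genes of chromosome 14, 245 (61.6%) were lower, against 1758 of the 10427 (16.9%) on other chromosomes. The fall was not spread evenly along the chromosome, since the medians of windows of 10 Mb from 0 to 40 Mb lay between -0.093 and 0.091. From 40 to 80 Mb they were -0.73, -0.68, -0.71 and -1.04. Between 80 and 120 Mb the windows held few genes and had medians from -0.43 to -0.21, and the window from 120 to 130 Mb, which holds Zic2 and Zic5, had a median of 0.10. DNA was not measured, and what sets the level of this stretch was not tested.

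The genes nearest to Otx2 were lower on both sides. On the side of lower coordinates these were Tmem260 at 212 kb with a log2 fold change of -0.46 (limma adjusted p = 0.00686), Peli2 at 537 kb with -0.40 (limma adjusted p = 0.0211) and Ktn1, which encodes kinectin, with -1.29 (limma adjusted p = 0.000197). On the other side they were Exoc5, a subunit of the exocyst, at 346 kb with -0.76 (limma adjusted p = 0.00216), Ap5m1 at 408 kb with -0.63 (limma adjusted p = 0.00366) and Naa30 at 515 kb with -0.80 (limma adjusted p = 0.000654). In each of the 6 both C3G KO samples lay below all WT samples, with and without scaling. The call of Peli2 was lost without C3G KO 1, at -0.34. Ktn1 had 28.6, 28.0 and 26.3 scaled TPM in WT and 10.6 and 10.7 in C3G KO. The single gene within 5 Mb that was higher was Ndrg2, at 0.32 (limma adjusted p = 0.0237), less than the 0.99 of Otx2. Its call was lost without WT 1 or WT 2, at 0.27 and 0.33, and its value was 0.26 without C3G KO 2. Ndrg2 also did not pass as deposited, at -0.24, or with scaling to protein-coding TPM, at 0.14.

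Set against its neighbours, Otx2 changed more than against the genome, which follows from its own rise and their fall. The median scaled level of the 48 neighbours was 9.09, 9.02 and 9.10 in WT and 5.53 and 5.43 in C3G KO. On the log2(TPM + 1) scale Otx2 minus the neighbour median was 0.022, -0.063 and 0.0072 in WT, at the level of its neighbours, and 1.67 and 1.57 in C3G KO. The difference of 1.63 was many times the spread in either group. The exact permutation test over samples, made two-sided by doubling the p of 1 side, gave p = 0.2. That is the smallest value this form of the test can give with 3 against 2 samples.

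**Figure D4:**
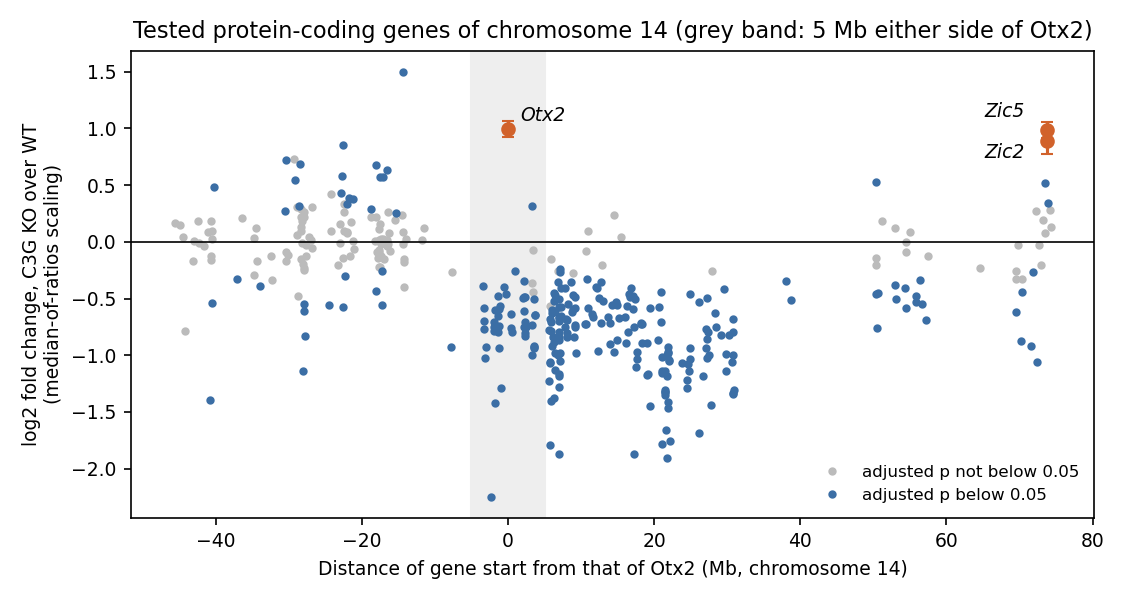
Log2 fold change after median-of-ratios scaling of the tested protein-coding genes of chromosome 14 against their distance from the start of Otx2 in Mb. The 48 genes within 5 Mb have a median of -0.70 and Otx2 lies at 0.99.

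Zic2 and Zic5 lie far from this stretch, and their surroundings did not move as one. Of 19 tested protein-coding genes within 5 Mb of Zic2, 6 (31.6%) were lower and 2 higher, with a median log2 fold change of -0.20. Of 10427 on other chromosomes, 16.9% were lower and 1486 were higher, with a median of 0.0054. The 2 near Zic2 that were higher were Clybl, a mitochondrial citramalyl-CoA lyase, at 0.52 (limma adjusted p = 0.0171) and Pcca, a subunit of propionyl-CoA carboxylase that starts 58.9 kb from Zic2, at 0.34 (limma adjusted p = 0.0204). Tm9sf2, Ubac2, Ggact and Tmtc4, the other genes nearest to the pair, lay between 0.079 and 0.28 and did not pass. The call of Clybl was lost without C3G KO 1 or WT 2, at 0.45 and 0.50, and that of Pcca without C3G KO 1, C3G KO 2 or WT 2, at 0.39, 0.30 and 0.32. Both lay below 0 as deposited. Zic2 and Zic5 minus the neighbour median differed by 1.197 and 1.29 between the groups (exact permutation test, p = 0.2 for each, the smallest this form of the test can give). Around the other members the medians within 5 Mb were between 0.024 and 0.091.

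Zic5 was among the genes most like Otx2 across the samples. The distance between log2 profiles centred on their means, over 5 samples, was 0.066 for 4930526L06Rik, an antisense RNA, 0.113 for Snora73b, 0.122 for Zic5 and 0.124 for Tdrd12, which were among the nearest. Zic2 was at rank 143 of the tested genes. The genes nearest to Zic2 were Hist1h1e and Hist1h3g, to Zic5 A2m and Arhgap45, to Foxd3 Akap12 and Sap30l, to Sox4 Sgo1 and Caprin1, to Lin28b Gm13357 and Chtf18, and to Pou3f1 Usp1 and Csnk1g3. A profile over 5 samples carries little beyond the difference between the groups.

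Other genes of the epiblast and primed state were called in both directions, at shares near those of all genes. Of 23 genes in this list, 21 were tested, 4 (19.0%) were higher and 4 (19.0%) lower in C3G KO, against 14.1% and 16.6% of all tested genes, and the median log2 fold change was 0.021, against 0.0052 over all tested genes. As deposited 1 was higher and 12 (57.1%) lower, against 56.8% of all genes. Lef1, a partner of beta-catenin in Wnt signalling, had 3.08, 2.12 and 2.35 scaled TPM in WT and 8.65 and 8.09 in C3G KO, with a log2 fold change of 1.42 (limma adjusted p = 0.000801), and was the gene of the list that was also higher as deposited, at 0.85 (limma adjusted p = 0.00121), a deposited call that was lost without WT 2, at 0.76. Dnmt3a, a de novo DNA methyltransferase, was higher by 0.63 (limma adjusted p = 0.00425) after scaling and at 0.0016 as deposited. Dnmt3b, also a de novo methyltransferase, was at 0.44 (limma adjusted p = 0.0151) and Foxp1 at 0.28 (limma adjusted p = 0.0190) after scaling, and both were below 0 as deposited. The call of Dnmt3b was lost without C3G KO 2 or WT 2, at 0.32 and 0.42, and that of Foxp1 without C3G KO 1, C3G KO 2 or WT 2, at 0.29, 0.28 and 0.30.

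T and Cdh2 were the genes of the list that fell most. T, also called Brachyury and a gene of the primitive streak, had 4.25, 3.27 and 3.90 scaled TPM in WT and 0.905 and 1.46 in C3G KO, with a log2 fold change of -1.15 (limma adjusted p = 0.00254). Cdh2, which encodes N-cadherin, had 3.06, 2.70 and 2.47 scaled TPM in WT and 0.727 and 0.938 in C3G KO, and its log2 fold change was -1.03 (limma adjusted p = 0.00116). Sall2 and Fgf8 were lower by less, at -0.64 (limma adjusted p = 0.00217) and -0.53 (limma adjusted p = 0.0264). Sall2 starts 3.65 Mb from Otx2 and is among its 48 neighbours, whose median was -0.70. Eomes, also a gene of the primitive streak, was at 0.021 (limma adjusted p = 0.904), and Mixl1 was not tested. In the study's qPCR both T and Eomes were repressed in C3G null cells. T and Cdh2 passed under all 15 alternatives that could be fitted, whereas Fgf8 was lost without C3G KO 1 or C3G KO 2, at -0.67 and -0.43. Fgf5, a growth factor used as a primed-state marker, had 1.71 to 1.98 scaled TPM in WT and 2.02 and 3.01 in C3G KO and did not pass (log2 fold change 0.31, limma adjusted p = 0.118).

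The 19 naive and core pluripotency factors were also called in both directions, with 4 (21.1%) higher and 4 (21.1%) lower, against 14.1% and 16.6% of all tested genes, and a median log2 fold change of 0.14. Gbx2, a homeodomain factor, was at -0.78 (limma adjusted p = 0.00188) and Klf4, a zinc finger factor, at -0.51 (limma adjusted p = 0.0348), a call that was lost without C3G KO 1, WT 1 or WT 2, at -0.33, -0.47 and -0.48. Tcl1, a co-activator of Akt kinases, was at 0.93 (limma adjusted p = 0.00102) and Dppa3, a maternal factor also called Stella, at 0.85 (limma adjusted p = 0.000460). As deposited 0 of the 19 were higher in limma, 0 also at an unadjusted p under 0.05, and 8 (42.1%) were lower, against 56.8% of all genes. The study's qPCR had Klf4 higher in C3G null cells, the opposite of its fall here. Its Western blots had KLF4 protein higher as well, with a decrease when C3G was put back into a null clone. The cause of this difference was not tested.

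Of 4 tested relatives of the members, 0 were called higher and 1 (25%) lower, against 14.1% and 16.6% of all tested genes. So few genes cannot show whether their share differs from that of all genes. Of 14 paralogs, 4 were tested, 10 were below 1 TPM in every sample and 1 of these 10 was listed at 0. Lin28a had 56.5, 59.0 and 57.7 scaled TPM in WT and 55.1 and 67.4 in C3G KO, with a log2 fold change of 0.077 (limma adjusted p = 0.596), and was thus far more abundant than Lin28b. Sox11 was lower, at -0.47 (limma adjusted p = 0.0156), a call that was lost without C3G KO 1 or WT 2, at -0.36 and -0.45. The limma count of paralogs called higher after scaling was 0, and 0 also at an unadjusted p under 0.05.

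Lin28b is both a regulator and a target of let-7. A microRNA pairs through its seed, bases 2 to 8, with matching sites in 3′ UTRs, and the mature form of let-7a is shown with the seed in capitals, followed by the sites of Lin28b and of Hmga2, the gene of the LIN28 and let-7 list that fell most. In the sites the capitals mark the 7 bases that pair with the seed, CTACCTC, searched on the transcript strand.
let-7a-5p: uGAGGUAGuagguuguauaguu
Lin28b site 1: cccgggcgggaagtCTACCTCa
Lin28b site 2: atacttgttagtaaCTACCTCt
Lin28b site 3: tttacagcacatggCTACCTCc
Lin28b site 4: aatgatggcaccgaCTACCTCt
Hmga2 site 1: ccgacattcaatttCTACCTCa
Hmga2 site 2: cccactcctcaataCTACCTCt
Hmga2 site 3: tgatttgcaaggaaCTACCTCc
Hmga2 site 4: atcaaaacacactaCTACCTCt
The match was in the 3′ UTR of 906 of 10508 tested genes (8.62%) and, among the members, in that of Lin28b alone. The median log2 fold change was -0.050 for tested genes with a match and 0.0028 for those without. Of 11 gene symbols that begin with Mirlet7, those that name a let-7 gene by a letter from a to i were listed at 0 in every sample. These libraries therefore do not show whether mature let-7 differed.

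Of 17 genes of the LIN28 and let-7 pathway and its known targets, all were tested, 2 (11.8%) were higher and 2 (11.8%) lower, against 14.1% and 16.6% of all tested genes, with a median log2 fold change of -0.058. Hmga2, a chromatin protein, had 4.61, 4.60 and 3.92 scaled TPM in WT and 1.28 and 1.25 in C3G KO, with a log2 fold change of -1.25 (limma adjusted p = 0.000416). Arid3a, a DNA-binding factor with 2 matches, had 3.51, 3.58 and 3.65 scaled TPM in WT and 1.55 and 1.81 in C3G KO, with a log2 fold change of -0.77 (limma adjusted p = 0.00105). Igf2bp3 and Igf2bp2, RNA-binding proteins with 1 match each, were higher at 0.37 (limma adjusted p = 0.0247) and 0.27 (limma adjusted p = 0.0258) after scaling and below 0 as deposited. The call of Igf2bp3 was lost without C3G KO 2, WT 2 or WT 3, at 0.26, 0.34 and 0.35, and that of Igf2bp2 without C3G KO 2, WT 1 or WT 2, at 0.23, 0.27 and 0.24. Igf2bp1 and Trim71, with 4 matches each like Lin28b, had log2 fold changes of -0.28 (limma adjusted p = 0.0602) and -0.067 (limma adjusted p = 0.630), and genes of the list with matches thus lay between -1.25 and 0.37.

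**Figure D5:**
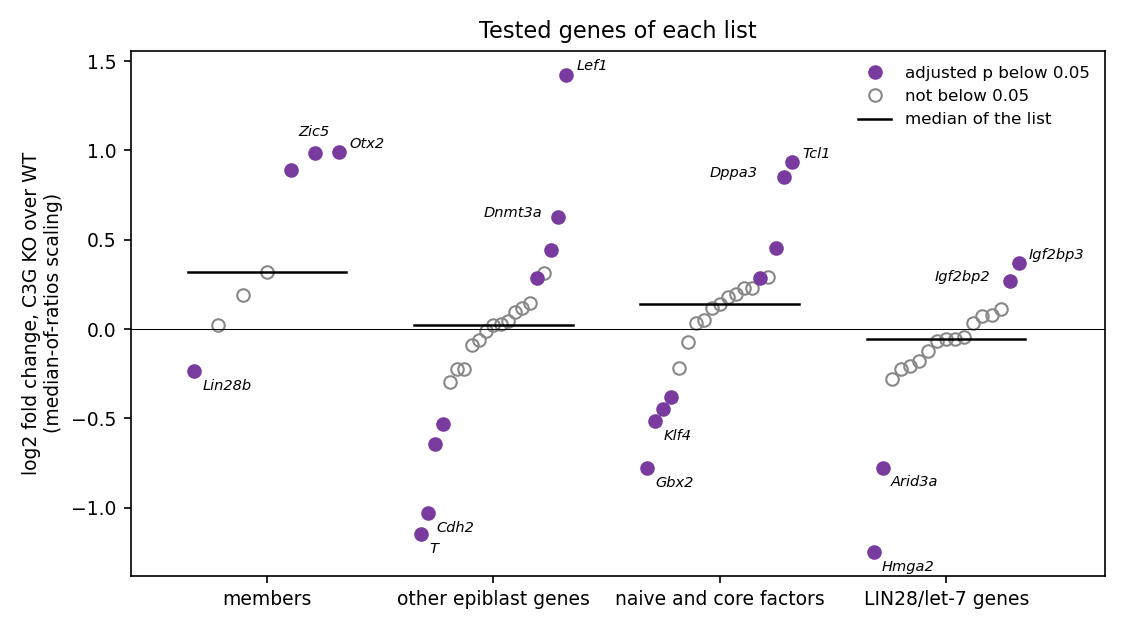
Log2 fold change after median-of-ratios scaling of every tested gene of the members, the other epiblast genes, the naive and core factors and the LIN28 and let-7 genes, with filled points for adjusted p below 0.05 and a line at the median. Lef1 at 1.42 and Hmga2 at -1.25 are the ends of the range.

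Markers of ES cells were present in all samples. All 7 were tested, and 1 (14.3%), Dppa5a, was higher at 0.71 (limma adjusted p = 0.0307), against 14.1% of all tested genes. In limma 0 were lower, 0 also at an unadjusted p under 0.05. The value of Dppa5a was 0.054 with quantile normalization (limma adjusted p = 0.788). The summed scaled level of the 7 was 1624 to 2038 in WT and 2506 and 2818 in C3G KO. As deposited the sums overlapped, with 2168 to 2295 in WT and 1743 and 2270 in C3G KO. Of 10 early neural markers 8 were below 1 TPM in every sample, Neurog2 among them at 0. Their summed scaled level was 8.82 to 10.7 in WT and 5.69 and 7.14 in C3G KO. Of the 2 tested, Nes, which encodes nestin, was lower at -1.28 (limma adjusted p = 0.000437). The other lay above 0 and did not pass, although its unadjusted limma p was under 0.05. Of 7 primitive endoderm markers 5 were below 1 TPM, with scaled sums of 3.90 to 4.07 in WT and 6.95 and 9.37 in C3G KO. As deposited these sums were not separated, with 4.30 to 5.43 in WT and 4.30 and 8.49 in C3G KO. Dab2 was higher at 0.69 after scaling (limma adjusted p = 0.0247). It did not pass as deposited, at 0.22 (limma adjusted p = 0.325), or with scaling to protein-coding TPM, at 0.53 (limma adjusted p = 0.0570). Of 6 mesoderm markers 4 were below 1 TPM, with scaled sums of 5.68 to 7.03 in WT and 2.89 and 4.05 in C3G KO. Of 6 fibroblast markers 4 were below 1 TPM, with scaled sums of 3.58 to 4.32 in WT and 1.56 and 1.62 in C3G KO. Col1a1 and Thy1 were lower at -0.96 (limma adjusted p = 0.00135) and -0.36 (limma adjusted p = 0.0227). Of these calls, Dppa5a was lost without C3G KO 1 or C3G KO 2, at 0.59 and 0.83, and without WT 1 or WT 2, at 0.59 and 0.72. Dab2 was lost without WT 1 or WT 2, at 0.68 and 0.65, and passed at 1.01 without C3G KO 1 and 0.41 without C3G KO 2, and Thy1 without C3G KO 1 or C3G KO 2, at -0.43 and -0.30, and without WT 1 or WT 2, at -0.33 each. The part of these cell types in the levels of the members was not tested, and in bulk samples fewer cells of a type and less RNA per cell cannot be told apart.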

How the data were processed

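RNA sequencing of total RNA from 3 WT and 2 C3G KO samples was analysed from 1 deposited table of TPM for 142647 Ensembl transcripts. Per the labels, the authors used bcl2fastq 2.20, FastQC 0.11.7, STAR 2.5.1b and RSEM 1.2.31 with GRCm38, and the annotation release is not given in the sources used here. TPM keep no read numbers, so depth is unknown, no counting intervals can be given, and the number of samples limits the precision.

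GENCODE M21 names were matched to 141524 transcripts, 1123 were not matched, and TPM were summed by symbol (115 symbols held more than 1 identifier). Genes with at least 1 TPM in at least 2 samples were tested by limma 3.58.1 (R 4.3.3) with a trend on log2(TPM + 1) after median-of-ratios scaling, two-sided, with Benjamini-Hochberg adjustment and a threshold of 0.05, and again as deposited. Log2 fold changes understate low genes. The prior degrees of freedom were 3.11 after scaling and infinite as deposited, where p-values ignore a single gene's own spread. The procedure was tested on simulated data. Otx2 was also compared with its neighbours by an exact permutation test. Named genes were the members, Rapgef1, the nearest neighbours, the nearest profiles and the 2 largest rises and falls of each list, and the others (Dnmt3b, Foxp1, Sall2, Fgf8, Fgf5, Lin28a, Ndrg2, Eomes, Mixl1, Igf2bp1 and Trim71) were chosen after their values were seen. Some genes that this rule or the lists take are not reported here. The members and lists were chosen with earlier results of these data known. Alternatives were other scalings, pseudocounts and filters, limma without the trend, a replicate block, a length and GC correction and each sample left out.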

Additional observations from a re-analysis of the deposited data

How the results depend on the processing

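Otx2, Zic2 and Zic5 kept their direction in the alternatives that change 1 choice at a time and lost the call in 1 of these, TPM as deposited, where their log2 fold changes were 0.34, 0.27 and 0.36. Members called higher numbered 3 in the main analysis, 0 as deposited, 6 with the length and GC correction and 6 with that correction and the replicate block together, and 3 to 3 when 1 sample was left out. Members called lower numbered 1 (Lin28b) as deposited, after scaling to protein-coding TPM and with a pseudocount of 0.1, and 0 with quantile normalization, a pseudocount of 5, no filter, a filter of 5 TPM, limma without the trend, the replicate block, the length and GC correction, both of these, and each sample left out (0 to 0). With TPM as deposited and 1 sample left out, 0 to 2 members were higher and 0 to 4 lower, and Zic2 turned to -0.029 without C3G KO 2. With the filter of 5 TPM Lin28b and Pou3f1 were not tested. In limma Lin28b had an adjusted p between 0.00323 and 0.283 in these alternatives. Quantile normalization also brought Sox4 past the threshold, at 0.24 (limma adjusted p = 0.0415).

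Directions turned for Pou3f1, at -0.46 as deposited, -0.13 with protein-coding scaling, -0.020 with the replicate block, -0.022 without WT 3 and -0.10 without C3G KO 2 (range -0.10 to 0.15 when 1 sample was left out), and as deposited for Foxd3 at -0.24 and Sox4 at -0.39. Genes called higher and lower over all tested numbered 1760 and 2083 in the main analysis, 181 and 7109 as deposited, 707 and 3732 with protein-coding scaling, and 1122 and 1348 with the filter of 5 TPM, which tests fewer genes. Leaving out 1 sample, which leaves fewer samples, gave 909 to 1579 higher and 1385 to 1880 lower, with the lowest counts without WT 2. As deposited, leaving out 1 sample gave 90 (without WT 2) to 120 (without WT 3) higher and 2146 (without WT 2) to 10276 (without C3G KO 2) lower. A group left with 1 sample was assumed to vary like the other. Otx2 minus its neighbours was 1.63 with neighbours within 5 Mb, 1.74 within 2 Mb, 1.73 within 10 Mb, 1.78 with a pseudocount of 0.1, and 1.58 to 1.68 when 1 sample was left out. Of the 48 neighbours within 5 Mb, 37 (no filter) to 47 (as deposited) were called lower in the alternatives that tested all 48, a count chosen after seeing the data. The cause of these shifts was not tested.

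Whether the replicate numbers pair the samples could not be told. Deviations from the group means of WT 1 and C3G KO 1 correlated at -0.18 across genes, and those of WT 2 and C3G KO 2 at 0.18. With 2 C3G KO samples their deviations mirror each other, so the pairs with unlike numbers had the same values with the sign turned. With the replicate block 1489 genes were higher and 1816 lower, with 3 members higher and 0 lower, and with the block and the length and GC correction together 1305 were higher and 1421 lower.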
